A study of Homo sapiens with 2 samples.

Results

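This account covers 42 human genes of the interferon system, chosen as a list by name: interferon-stimulated genes and the components that sense, carry and switch on the interferon signal. All 42 were found among the 58174 gene identifiers of the table, and 38 had a mean of at least 1 TPM over both libraries, out of 15008 such genes in all. TPM is a relative abundance, corrected for transcript length and brought to the same total in every library. The 4 others, IFNB1, CXCL10, DHX58 and XAF1, were listed at 0 in the control library and at no more than 0.129 TPM after POH1 siRNA.

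The cells were PC3, an established human prostate cancer line. One group was transfected with a control siRNA and the other with an siRNA against POH1, a deubiquitinase in the lid of the proteasome (gene PSMD14). Each group held 1 RNA sequencing library from a single cell line. There is therefore no replicate error, no test between groups and no p-value, and every difference is one between these 2 libraries. In such bulk RNA, a change in the number of cells expressing a gene and a change in the amount per cell cannot be told apart.

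Interferons are secreted proteins that warn cells of infection. Type I interferons bind a receptor made of IFNAR1 and IFNAR2, and the kinases JAK1 and TYK2 at that receptor phosphorylate STAT proteins. The complex ISGF3, which holds STAT2 and IRF9, binds the interferon-stimulated response element in gene promoters. Its targets include proteins that block virus entry (IFITM), bind viral RNA (IFIT) or activate RNA decay (OAS), and many cancer cell lines express some of them without added interferon.

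The target gene PSMD14 was at 50.9 TPM with control siRNA and 35.1 TPM after POH1 siRNA. Its log2 difference of -0.52 lies within the 1.5-fold threshold used below, 10.7% of all genes were as low or lower, and after an adjustment for the GC content of transcripts, described with its results, it was -0.24. Epithelial markers fitted the line, with 5 of 5 (KRT8, KRT18, KRT19, EPCAM and CDH1) between 111 and 1734 TPM. STAT3, chosen after its values were seen, was listed at 0.000738 and 0 TPM, and PC3 is known to lack this gene. Of 10 leukocyte markers, 6 were at 0 in both libraries, and PTPRC, which encodes CD45, was at 0 and 0.0568 TPM. The summed level of these 10 was 45.8 TPM with control siRNA and 70.8 TPM after POH1 siRNA, of which CD68, also made by other cells, gave 44.2 and 68.5. For 7 endothelial and fibroblast markers the sums were 37.2 and 52.6 TPM, most of it COL1A1 (30.9 and 47.8 TPM). The part of these markers in the results was not tested.

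The interferon genes did not move as a block. As deposited, IFITM1 stood far above its control level. The IFIT and IFI44 genes and IFI6 lay below theirs, and the ISGF3 and IRF factors lay above. IRF9, IRF2 and IFIT3 changed direction in some of the settings described below. The IFIT and IFI44 genes all lay within 1.5-fold after GC adjustment. Differences are given as log2(TPM + 1) in the POH1 siRNA library less that in the control library. The threshold for calling a gene higher or lower was 1.5-fold on this scale, which is 0.585. By this count 5 of the 38 measured genes were higher, 5 were lower and 28 lay within 1.5-fold. Among all 15008 genes 10.2% were higher and 8.88% lower, against 13.2% and 13.2% of the 38. When the libraries were instead scaled to a median log2 ratio of 0, 4 of the 38 were higher and 7 lower, beside 6.28% and 12.4% of all genes. The median log2 difference of the 38 was 0.19, beside 0.12 for all genes, and 21 of the 38 lay above that value. Their summed level was 3794 TPM with control siRNA and 4368 TPM after POH1 siRNA, a ratio of 1.15.

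**Figure D1:**
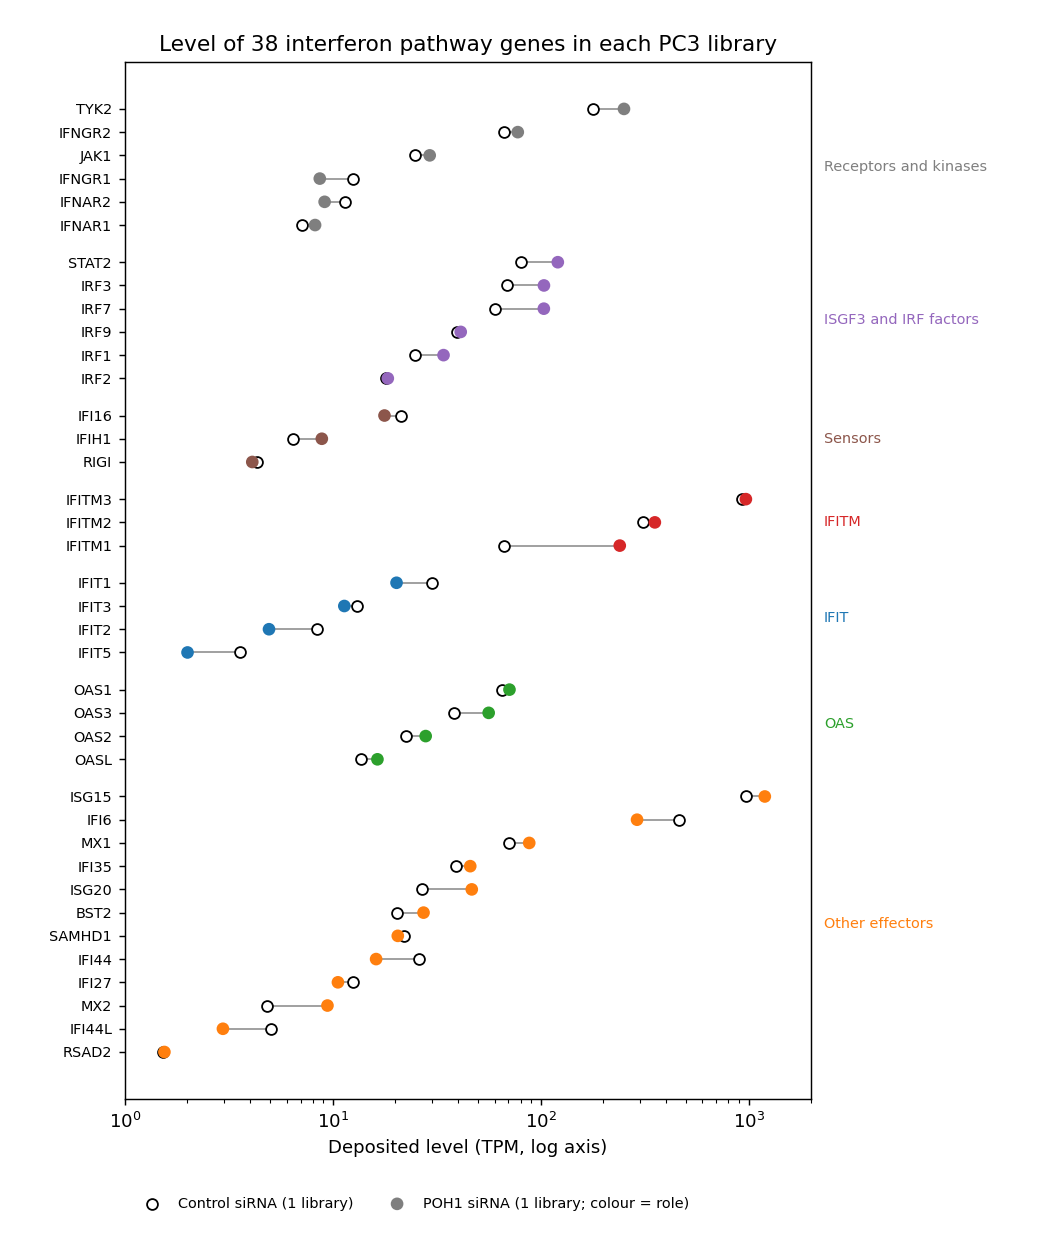
Level of each of the 38 measured genes in TPM on a log axis, in the control siRNA library (open circles) and the POH1 siRNA library (filled circles, coloured by role), 1 library each. IFITM1 has the longest line, from 66.8 to 240.1 TPM, while the 4 IFIT genes have their filled circle on the left.

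Interferon genes themselves were nearly silent in both libraries. IFNB1, which encodes interferon beta, was listed at 0 TPM with control siRNA and 0.129 TPM after POH1 siRNA. Of 20 further interferon genes, 15 were at 0 in both libraries and 19 were under 1 TPM in both, where the highest value was 0.128 TPM. The exception was IFNE, the epithelial interferon epsilon, at 2.01 TPM with control siRNA and 0.743 TPM after POH1 siRNA. CXCL10, a chemokine induced strongly by interferon gamma, was listed at 0 in both.

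Receptors and their kinases were present in both libraries, and none of the 6 passed 1.5-fold. IFNAR1 was at 7.09 TPM with control siRNA and 8.22 TPM after POH1 siRNA, and its partner IFNAR2 was at 11.5 and 9.14 TPM. Of the interferon gamma receptor chains, the ligand-binding IFNGR1 was at 12.6 and 8.66 TPM and the signalling chain IFNGR2 at 66.6 and 77.6 TPM. IFNAR2 shares 36.3% of its 50-base words with IL10RB-DT on the opposite strand (0.237 and 2.02 TPM), where reads cannot be told apart without strand. In each receptor pair 1 chain lay above and 1 below its control level. JAK1 was at 24.9 and 29.3 TPM. TYK2 was the most abundant of the 6, at 178 TPM with control siRNA and 252 TPM after POH1 siRNA, a log2 difference of 0.50.

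All 6 of the ISGF3 and IRF factors lay above their control level, with a median log2 difference of 0.51, and 2 of them passed 1.5-fold. Of all genes, 61.2% lay above 0 and 10.2% were higher. After GC adjustment 1 of the 6 was higher, beside 12.6% of all genes. IRF7, which amplifies type I interferon production, was at 60.5 TPM with control siRNA and 104 TPM after POH1 siRNA, a ratio of 1.71. STAT2, the subunit that gives ISGF3 its activation domain, was at 80.1 and 121 TPM, a ratio of 1.51 and a log2 difference of 0.588. IRF3, which drives interferon beta transcription downstream of the sensors, was at 69.2 and 104 TPM. Its log2 difference of 0.577 lies just under the threshold, so as deposited STAT2 and IRF3 fall on different sides of it at nearly the same size. After GC adjustment STAT2 was at 0.59 and IRF3 at 0.41. IRF1, a factor induced by interferon gamma, was at 24.8 and 34.1 TPM. IRF9, the DNA-binding subunit of ISGF3, was at 39.5 and 41.3 TPM, and IRF2, which can compete with IRF1, was at 18.0 and 18.4 TPM.

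The directions of IRF9 and IRF2 were not stable, and both lay below 0 when the libraries were scaled to a median log2 ratio of 0 (IRF9 at -0.07, IRF2 at -0.10). The call of STAT2 was lost under that scaling (0.45) and 3 other settings. Reads are hard to assign for 3 of these factors. IRF9 shares 43.2% of its 50-base words with a same-strand gene model, ENSG00000259529, at 6.87 and 12.9 TPM, and the sum of both differed by 0.22. IRF3 overlaps BCL2L12 (91.9 and 110 TPM) and IRF1 overlaps IRF1-AS1 (3.13 and 5.14 TPM) on the opposite strand, and no source used here says whether strand was used.

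The sensors had a median log2 difference of -0.06 as deposited and 0.37 after GC adjustment, beside 0.12 and 0.15 for all genes. RIGI, the helicase that detects short viral RNA with a free triphosphate end, was at 4.32 TPM with control siRNA and 4.10 TPM after POH1 siRNA. IFIH1, which encodes the long double-stranded RNA sensor MDA5, was at 6.45 and 8.86 TPM. DHX58, which encodes their relative LGP2, was listed at 0 in both libraries. IFI16, a nuclear DNA sensor, was at 21.3 and 17.7 TPM. None of the 3 measured sensors passed 1.5-fold as deposited, but with GC adjustment IFIH1 was called higher (0.77). Of all genes 12.6% were higher with this adjustment.

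Among the effectors, the IFITM genes encode small membrane proteins that hinder fusion of viruses with cell membranes. They were among the most abundant of the 42, and they behaved unequally. IFITM1, which acts mostly at the cell surface, was at 66.8 TPM with control siRNA and 240.1 TPM after POH1 siRNA, a 3.59-fold higher level and a log2 difference of 1.83. Of all 15008 genes, 0.326% had a difference as high or higher. IFITM2 was at 312 and 354 TPM, and IFITM3, which acts in endosomes, was at 933 and 970.3 TPM. The log2 differences of these 2 were 0.18 and 0.06.

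IFITM1, IFITM2 and IFITM3 are near copies, so reads can be split between them. Of all 50-base words in the annotated IFITM1 transcripts, 29.4% also occur in IFITM2 and 9.19% in IFITM3. The level summed over the 3 genes was 1312 TPM with control siRNA and 1564 TPM after POH1 siRNA, a log2 difference of 0.25. The sum of IFITM1 and IFITM2 was 379 and 594 TPM, a difference of 0.65. Exons of IFITM1 also overlap those of another gene on the same strand, so its value is uncertain.

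The neighbours of IFITM1 on the chromosome differed less. Of the 6 protein-coding genes on either side of it, 10 had a mean of at least 1 TPM, and their log2 differences ran from 0.06 to 0.87 with a median of 0.37. These genes were chosen for their position only. All 10 lay above 0 as deposited, as did 61.2% of all genes and 83.1% of all genes above 55% GC. After GC adjustment the 10 ran from -0.10 to 0.69. IFITM3 was the one at -0.10, and it also lay below 0 under 3 other scalings. PGGHG, a glucosidase gene, was the only other one past 1.5-fold (8.24 and 15.9 TPM), and the proteasome subunit gene PSMD13 was at 237 and 255 TPM. IFITM5, a bone-restricted member of the family, was listed at 0 in both libraries.

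**Figure D2:**
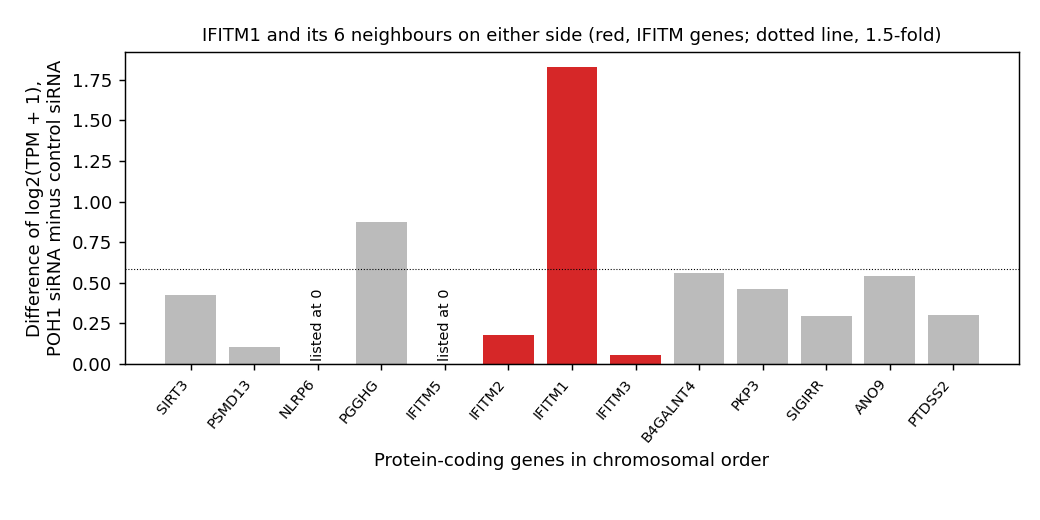
Difference of log2(TPM + 1) between the POH1 siRNA and control siRNA libraries for IFITM1 and the 6 protein-coding genes on either side, in chromosomal order; red bars are IFITM genes and the dotted line is 1.5-fold. IFITM1 reaches 1.83, while IFITM2 and IFITM3 on either side of it are at 0.18 and 0.06.

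The promoters of IFITM1 and IFITM3 are printed because the genes are neighbours with like start regions and unlike differences. The sequences are RefSeq windows of build GRCh38.p14, read 5′ to 3′ on the gene's strand and ending at or just past the annotated start. Capitals mark GAAA, any 2 bases and GAAA again, the core of the interferon-stimulated response element, or its other strand, TTTC, any 2 bases and TTTC. The stretches are chr11:313900-314043 on the plus strand for IFITM1 and chr11:320861-321000 on the minus strand for IFITM3.
IFITM1: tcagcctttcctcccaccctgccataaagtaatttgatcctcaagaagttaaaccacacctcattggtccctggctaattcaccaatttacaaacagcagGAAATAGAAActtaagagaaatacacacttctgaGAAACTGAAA
IFITM3: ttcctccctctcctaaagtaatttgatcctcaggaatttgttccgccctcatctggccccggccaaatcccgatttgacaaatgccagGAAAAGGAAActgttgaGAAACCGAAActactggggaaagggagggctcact
Each stretch holds 2 matches. In IFITM1 they begin 40 and 6 bases before the annotated start, and in IFITM3 52 and 35 bases before it.

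The 4 IFIT genes, whose products bind viral RNA ends and block their translation, all lay below their control level. IFIT1 was at 30.1 TPM with control siRNA and 20.3 TPM after POH1 siRNA. IFIT2 was at 8.38 and 4.94 TPM, a 1.70-fold lower level. IFIT3, the partner that stabilises IFIT1, was at 13.1 and 11.4 TPM, and IFIT5 was at 3.56 and 2.00 TPM, a 1.78-fold lower level. The median log2 difference of the 4 was -0.57, and IFIT2 (-0.66) and IFIT5 (-0.60) passed 1.5-fold. Of all genes 8.88% were lower. All 4 have up to 45% GC, a class in which 20.1% of all genes were lower and 64.8% lay below 0. The calls of IFIT2 and IFIT5 ended with a pseudocount of 5 and after GC adjustment (-0.31 and -0.22). After that adjustment IFIT3 lay at 0.09 and the median of the 4 was -0.20. IFIT2 shares 7.50% of its 50-base words with the same-strand gene model ENSG00000232110, and the sum of both differed by -0.33.

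The OAS genes went the other way. Their enzymes make short 2′-5′ linked adenylate chains on sensing double-stranded RNA, except OASL, which lacks this activity. OAS1 was at 65.0 TPM with control siRNA and 70.8 TPM after POH1 siRNA. OAS2 was at 22.5 and 28.0 TPM, OAS3 at 38.4 and 56.2 TPM, and OASL at 13.7 and 16.4 TPM. All 4 lay above their control level, none past 1.5-fold, with log2 differences from 0.12 (OAS1) to 0.54 (OAS3). Of all genes 61.2% lay above 0. After GC adjustment the 4 ran from 0.18 (OAS1) to 0.47 (OAS3), with a median of 0.31, beside 0.15 for all genes. OAS1 alone of the 4 changed direction, to -0.02, when the libraries were scaled to a median log2 ratio of 0.

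The remaining effectors were split. ISG15, the ubiquitin-like modifier and the most abundant of the 42, was at 973 TPM with control siRNA and 1197 TPM after POH1 siRNA, a log2 difference of 0.30. ISG20, an exonuclease, was 1.73-fold higher (27.0 and 46.6 TPM). MX2, a dynamin-like GTPase that blocks nuclear entry of retroviruses, was 1.95-fold higher (4.82 and 9.43 TPM), while its relative MX1, which acts on influenza viruses, was at 70.2 and 88.1 TPM. BST2, or tetherin, which holds budding virus at the cell surface, was at 20.3 and 27.3 TPM.

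In the other direction, IFI6, which protects cells from apoptosis and restricts flaviviruses, was 1.59-fold lower (461 and 291 TPM). IFI44 and its neighbour IFI44L were lower together: IFI44 was at 26.1 and 16.2 TPM and IFI44L at 5.02 and 2.96 TPM, log2 differences of -0.66 and -0.60. IFI27, a mitochondrial protein gene often used as a marker of interferon exposure, was at 12.6 and 10.6 TPM. IFI35 was at 39.1 and 45.8 TPM, and the deoxynucleotide hydrolase gene SAMHD1 at 22.0 and 20.6 TPM. RSAD2, which encodes viperin, was at 1.53 and 1.55 TPM, and XAF1, a proapoptotic gene, at 0 and 0.0581 TPM. In all, 3 of the 23 measured effectors were higher (13.0%) and 5 were lower (21.7%), beside 10.2% and 8.88% of all genes, and the median log2 difference was 0.12. After GC adjustment 3 were higher and 1 was lower, beside 12.6% and 5.19% of all genes.

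In these libraries the difference of a gene went with the GC content of its transcripts, over all genes and within the interferon list alike. Across the 38 genes, Spearman's rho between GC content and log2 difference was 0.59, and across 14983 genes it was 0.42. These describe genes that share the same 2 libraries. The 11 interferon genes with up to 45% GC had a median log2 difference of -0.49, 10 of them lay below 0 and 4 were called lower. All 3881 genes of this class had a median of -0.17, with 64.8% below 0 and 20.1% called lower. The 12 genes above 45% and up to 55% GC had a median of 0.22, and the 15 above 55% had a median of 0.30 (all genes 0.08 and 0.28). The low class holds all 4 IFIT genes, IFI44 and IFI44L, the 3 measured sensors, IFNGR1 and SAMHD1, while IRF7 has the highest GC content of the 38 (66.9%).

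**Figure D3:**
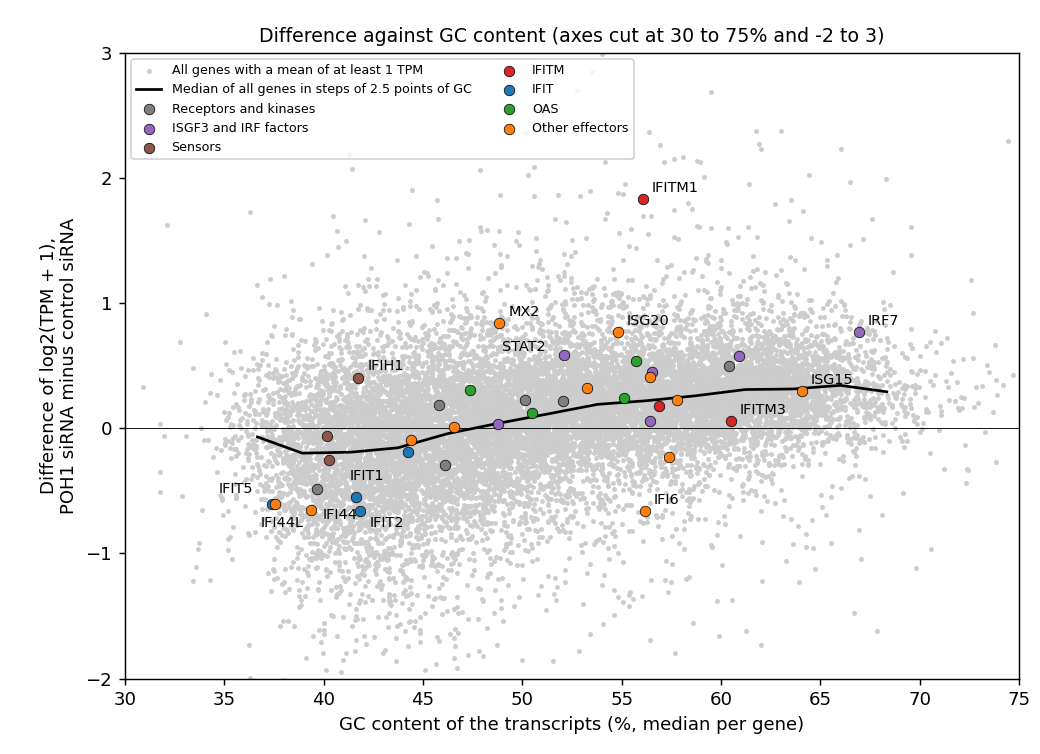
Difference of log2(TPM + 1) between the POH1 siRNA and control siRNA libraries against GC content of the transcripts in percent, for all genes (grey, with their medians in steps of GC content as a black line) and the 38 interferon genes (coloured by role). The IFIT and IFI44 genes sit at the low-GC end below 0, while IFITM1 at 56.1% GC and IFI6 at 56.2% GC lie far above and below genes of like GC content.

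An adjustment for GC content subtracted from each gene the running median of genes of like GC content and added back the overall median. Among all genes, 12.6% were then higher and 5.19% lower. Of the 38 interferon genes 5 were higher and 1 was lower, with a median of 0.19. The higher genes were IFITM1 (1.75), MX2 (0.95), IFIH1 (0.77), ISG20 (0.72) and STAT2 (0.59), so that IFIH1 was now counted and IRF7, at 0.57, was not. The only gene still lower was IFI6, at -0.74, where 3.33% of all genes were as low or lower. The other 4 lower genes lost their call and lay at -0.31 (IFIT2), -0.22 (IFIT5), -0.21 (IFI44) and -0.22 (IFI44L). RIGI, IFI16, IFIT3 and SAMHD1 changed from below to above 0, and IRF9 and IFITM3 from above to below. After adjustment the 3 sensors had a median of 0.37, the 6 factors 0.38 and the 4 IFIT genes -0.20, beside 0.15 for all genes.

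**Figure D4:**
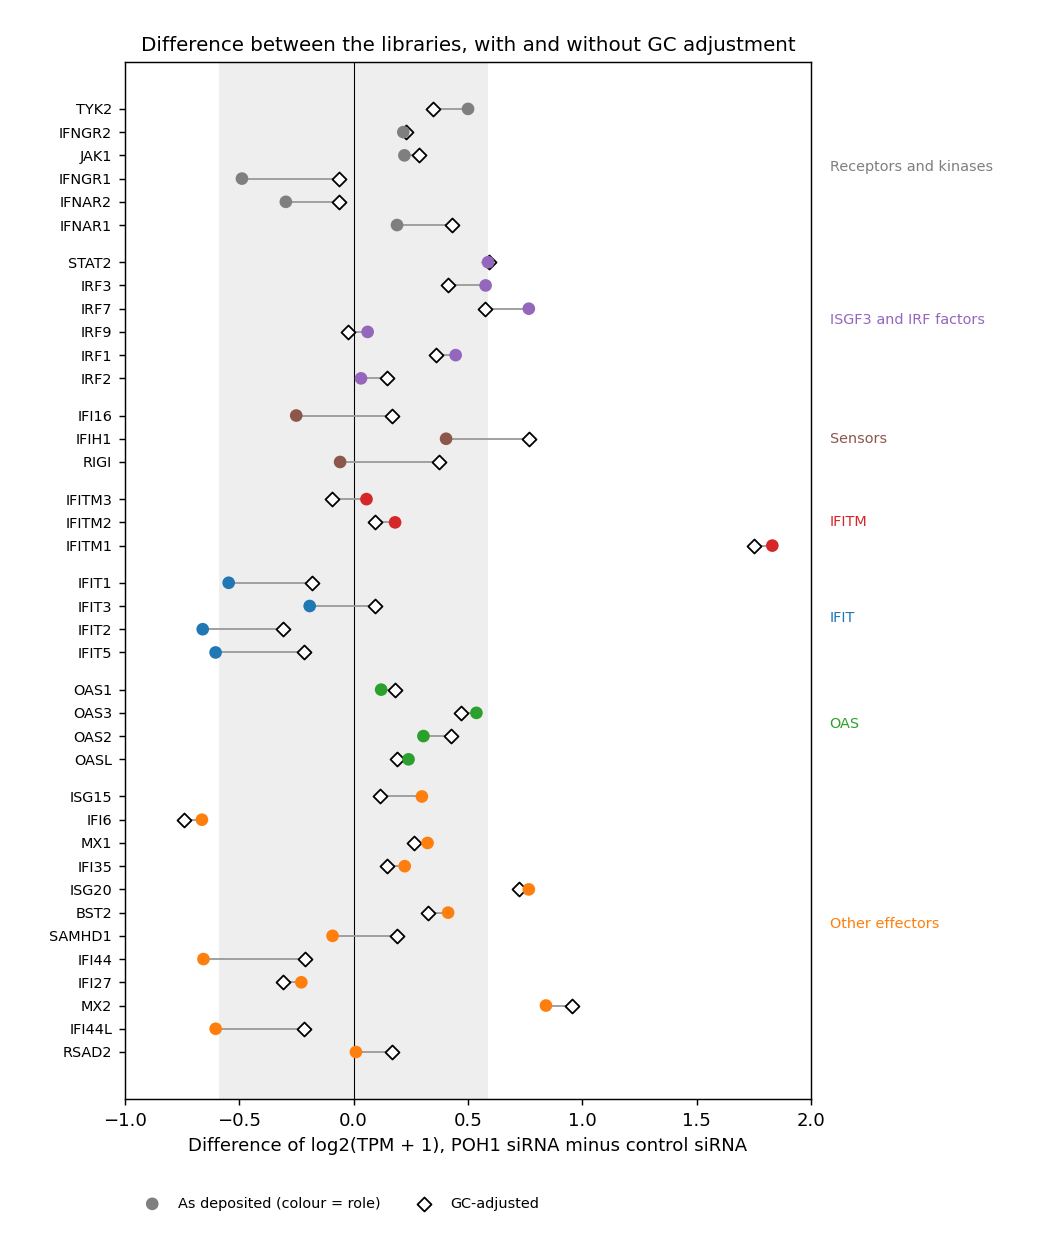
Difference of log2(TPM + 1), POH1 siRNA minus control siRNA, of the 38 genes by role, as deposited (filled circles) and after adjustment for GC content (open diamonds); the grey band is within 1.5-fold. IFITM1, ISG20, MX2, STAT2 and IFI6 stay outside the band with both values, while IFIT2, IFIT5, IFI44 and IFI44L move into it.

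Response element letters were common in the promoters of these genes whichever way their level differed. A RefSeq window from 250 bases before to 50 bases after the start was found for 32 of the 42. The core described above (GAAA, 2 bases, GAAA), searched on both strands, occurred in 16 of the 32 windows (50%), against 3.57% of all 34943 windows of this length. The list was chosen by name for interferon genes, among them known targets of ISGF3. A share above that of all windows was therefore partly set by this choice. The letters TTCNNNGAA, the core of the gamma-activated site, which read the same on both strands and can overlap the first motif, occurred in 8 of the 32 (25.0%), against 7.66% of all. Among measured genes, the 15 with the response element core (GAAA, 2 bases, GAAA) had a median log2 difference of 0.06, with 2 higher (IFITM1 and ISG20) and 4 lower (IFI6, IFIT5, IFI44 and IFI44L), where 10.2% and 8.88% of all genes were called. The 14 without this core had a median of 0.16, with 1 higher (STAT2) and none lower. After GC adjustment the medians were 0.09 with the core and 0.21 without it. IFIT5, IFI44 and IFI44L then lost their call, and IFIH1, which has the core, was called higher (0.77). Among all genes 12.6% were higher and 5.19% lower after adjustment. IFIT5, IFI44, IFI44L and IFIH1 have up to 45% GC, a class in which 20.1% of all genes were lower as deposited.

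Stretches of 4 such promoters are shown for genes with unlike differences: IFIT1 (-0.55), IFIT3 (-0.19), ISG15 (0.30) and IFI6 (-0.66). They end at the annotated start, and capitals mark the same letters. The positions are chr10:89392483-89392622 for IFIT1, chr10:89327857-89327996 for IFIT3 and chr1:1013357-1013496 for ISG15, all on the plus strand, and chr1:27672193-27672332 on the minus strand for IFI6.
IFIT1: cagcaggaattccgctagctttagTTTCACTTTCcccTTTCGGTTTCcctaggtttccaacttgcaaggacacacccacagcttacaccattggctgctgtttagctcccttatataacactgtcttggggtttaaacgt
IFIT3: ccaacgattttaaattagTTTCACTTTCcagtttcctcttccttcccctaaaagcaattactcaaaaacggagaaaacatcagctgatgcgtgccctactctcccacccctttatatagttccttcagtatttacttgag
ISG15: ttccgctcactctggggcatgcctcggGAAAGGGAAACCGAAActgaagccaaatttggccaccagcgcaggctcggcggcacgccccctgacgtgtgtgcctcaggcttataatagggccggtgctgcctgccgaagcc
IFI6: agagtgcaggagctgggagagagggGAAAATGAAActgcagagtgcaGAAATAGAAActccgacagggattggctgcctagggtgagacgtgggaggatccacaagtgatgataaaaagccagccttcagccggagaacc
In ISG15 the 2 matches overlap, and in IFIT1, IFIT3 and IFI6 the stretches hold 2, 1 and 2.

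A further list of 95 interferon pathway genes held other interferon-stimulated genes, adaptors and feedback regulators. Of these, 79 had a mean of at least 1 TPM, 5 were higher, 7 were lower and 67 lay within 1.5-fold, with a median log2 difference of 0.17. The shares, 6.33% higher and 8.86% lower, stand beside 10.2% and 8.88% of all genes. The members of the list that were lower included negative and positive regulators alike. PTPN2, a phosphatase that dephosphorylates JAK1, was 3.11-fold lower (39.6 and 12.7 TPM). MYD88, the adaptor of most Toll-like receptors, was 2.46-fold lower (41.5 and 16.9 TPM). ZNFX1, a helicase that senses double-stranded RNA, was 2.38-fold lower (24.6 and 10.3 TPM).

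TREX1, the exonuclease that clears cytosolic DNA, was 2.06-fold lower (9.60 and 4.65 TPM), but its exons overlap those of a neighbour on the same strand, so its value is uncertain. Without genes of this kind 6 of the list were lower. SP100, a nuclear body protein gene, was at 62.0 and 33.4 TPM, DDX60 at 2.39 and 0.927 TPM, and TBK1, the kinase that activates IRF3, at 4.20 and 2.33 TPM. After GC adjustment PTPN2 (-1.25), MYD88 (-1.30), ZNFX1 (-1.14) and TREX1 (-1.09) were still lower, and SP100, DDX60 and TBK1 were within 1.5-fold.

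The 5 higher genes were CREBBP, a coactivator gene (7.10 and 13.6 TPM), OGFR (46.6 and 81.8 TPM), HELZ2 (24.8 and 43.6 TPM), PARP12 (25.1 and 42.02 TPM) and TRIM22 (0.935 and 1.91 TPM). EP300, the close relative of CREBBP, was at 9.58 and 14.7 TPM, a TPM ratio of 1.54 that the pseudocount brings to a log2 difference of 0.57, under the threshold. It was called higher after GC adjustment (0.82). With GC adjustment 10 of the 79 were higher and 4 lower, beside 12.6% and 5.19% of all genes. MAVS, the adaptor that relays RIGI and MDA5, was at 26.7 and 26.9 TPM, STING1 at 36.4 and 41.4 TPM, and the DNA sensor CGAS at 5.12 and 5.52 TPM.

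Of the enzymes that attach or remove ISG15, the E1 gene UBA7 was at 7.04 and 6.41 TPM, the E2 gene UBE2L6 at 128 and 149.6 TPM, the ligase gene HERC5 at 1.15 and 0.859 TPM, and the protease gene USP18, also a brake on IFNAR2, at 9.27 and 11.8 TPM. None of these 4 passed 1.5-fold. The Janus kinase feedback inhibitors SOCS1 (8.16 and 10.4 TPM) and SOCS3 (37.7 and 56.0 TPM) lay above their control level within 1.5-fold. Both have above 55% GC, a class in which 83.1% of all genes lay above 0. After GC adjustment they were at 0.14 and 0.38. PTPN2, which dephosphorylates JAK1, was lower, as given above. JAK2, the kinase of the interferon gamma receptor beside JAK1, was at 0.552 and 0.625 TPM. The double-stranded RNA enzymes ADAR (91.5 and 103 TPM) and EIF2AK2, or PKR (6.26 and 7.19 TPM), also lay within 1.5-fold as deposited, and EIF2AK2 was called higher after GC adjustment (0.61).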

How the data were processed

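RNA was extracted with Trizol and made into mRNA libraries for Illumina sequencing, per the labels' protocols. CASAVA and HISAT2 and the build hg19 are named per the submitters' processing notes. No source used here gives the quantification tool, annotation, strand use or depth. The authors deposited TPM per gene, which sum to 999955 and 999968 in the 2 libraries. TPM keeps no depth, so no counting interval can be given.

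Symbols came from an identifier table (57392 of 58174 identifiers). Differences used log2(TPM + 1) over genes with a mean of at least 1 TPM, in Python 3.11.15 with pandas 2.3.3. GC content is the median over a gene's transcripts in GENCODE 29, found for 99.8% of these genes. GENCODE 29 and the RefSeq promoter windows are on GRCh38, not hg19. The GC adjustment used a running median over 501 genes of at least 5 TPM. Shared sequence was measured as 50-base words in genes of at least 1 TPM. Of the calculations, only the GC adjustment and the calls made after it were tested on simulated data.

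The members and lists were chosen with earlier results of these data known. All 42 members are named. Of the further list, the 6 highest, the 6 lowest and fixed regulators are named, and TBK1 is one of these. Some genes that this rule names are not reported here. IFNE, PGGHG, PSMD13, IFITM5 and the marker genes were named after their values were seen. With 1 library per group no test was made. The alternatives were pseudocounts of 0.1 and 5, no filter or one at 5 TPM, 2 other scalings, TPM recomputed after leaving out the 50 most abundant and all mitochondrial genes, GC adjustment, leaving out genes that share exons, and thresholds of 1.25-fold and 2-fold.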

Additional observations from a re-analysis of the deposited data

How the results depend on the processing

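Of the 10 interferon genes counted, IFITM1, ISG20 and IFI6 kept their call under pseudocounts, scalings and GC adjustment (6 settings). All 10 kept their direction after GC adjustment. Leaving out genes that share exons removed IFITM1 and IFIT2 from the count. Then 4 were higher and 4 lower, beside 9.84% and 8.56% of all genes. A pseudocount of 5 ended the calls of MX2, STAT2, IFIT2, IFIT5, IFI44 and IFI44L. IFIT1 and IFNGR1 were called lower under both scalings. Higher genes numbered 3 with a pseudocount of 5, 12 at the lowest threshold and 1 (IFITM1) at 2-fold. Of all genes, 4.24%, 28.7% and 2.15% were higher in these settings. Lower genes numbered 1 with a pseudocount of 5, 3 with a filter at 5 TPM, 1 with GC adjustment and 0 at 2-fold. Of all genes, 4.45%, 8.45%, 5.19% and 2.93% were lower there. In the further list, higher genes numbered 10 with GC adjustment, 19 at the lowest threshold and 0 at 2-fold. Lower genes of that list numbered 4 with GC adjustment and 3 at 2-fold. Beside these counts, 12.6%, 28.7% and 2.15% of all genes were higher, and 5.19% and 2.93% were lower. Scaling to a median log2 ratio of 0 and by a trimmed mean of log2 ratios lowered the ratios by 0.14 and 0.13. The median of the 38 genes was then 0.056 and 0.067, that of the further list 0.050 and 0.060, and the difference of the summed IFITM genes 0.12 and 0.13, or 0.12 with GC adjustment. Over all genes, median scaling left 934 higher and 1839 lower, against 1535 and 1333 as deposited, and GC adjustment 1886 and 778. Depth is unknown, and 1 library per group allows no error, so small differences, such as those of IRF9, IRF2, RSAD2 and IFITM3, have no stable direction here.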
